A study of Glycyrrhiza uralensis with 24 samples.

Results

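Roots of Glycyrrhiza uralensis held for 12 h in salt were compared with control roots by RNA-seq. G. uralensis is a licorice, a legume whose roots store the triterpenoid glycyrrhizin and flavonoids such as liquiritin. The members are the 3 libraries labelled as underground parts at 12 h of salt and the 3 labelled as underground controls, 6 of the 24 libraries of the series. All came from seedlings of 60 days. The salt roots stood in MS nutrient solution with 150 mM NaCl. The controls carry the label distilled water, while the protocol gives them as 0 h of the treatment in MS solution with NaCl, so what they stood in is in doubt. Salt and time of day, and the medium if the label holds, cannot be told apart here. The titles of control and salt libraries also follow different patterns, so a batch along those lines cannot be told apart from salt. No source used here says that the libraries came from separate plants, so the p-values cover the spread between the given samples, which may be technical. Root libraries at 2 h and 6 h of salt, and stems and leaves (aerial parts) at 0 h and 12 h, 3 libraries each, are used for context.

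The root is the organ that meets salt in the soil first. A high outside concentration of NaCl lowers the water potential around the root, and sodium then enters its cells. In plants studied for this, abscisic acid, ion transporters, small osmotic solutes and protective proteins take part in the response, and water uptake and growth slow early. The files give gene IDs without names or functions. Pathways, and markers that would check the labelled organ, were therefore not analysed here, and genes are described by their levels, times and organs, with a few IDs as examples.

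Values are TPM, transcript levels scaled by gene length and by library. The listed genes held 39.8% to 42.5% of the TPM scale in the 12 h roots and 47.3% to 51.1% in the controls, so the scale was set over more than the genes listed. TPM carry no read depth, which is therefore unknown. Over the 16138 genes tested, log2(TPM + 1) correlated at 0.89 to 0.91 between 12 h roots, at 0.83 to 0.89 between controls, and at 0.74 to 0.86 between a 12 h root and a control. The 6 h replicate 2 library stood apart from the other salt roots. It correlated at 0.74 to 0.85 with the controls and at 0.72 to 0.78 with the other 8 salt roots. It is no member of the comparison, but it enters the fit that sets the spread, so results are also given without it.

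At 12 h, 797 of the 16138 genes tested differed from controls, which is 4.94% of them. A gene was called at a limma adjusted p under 0.05, two-sided, in a fit of log2(TPM + 1) over all 12 root libraries. Of these, 298 were higher at 12 h (1.85% of genes tested) and 499 were lower (3.09%). In each of the 797 genes, the 3 libraries of one group lay above the 3 of the other. That separation held for 13.8% of all genes tested in the upward direction and for 17.8% in the downward direction. The last gene called had a limma adjusted p of 0.0499 and the first not called one of 0.0502. These are whole roots, so fewer cells of a type and less RNA per cell cannot be told apart.

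**Figure D1:**
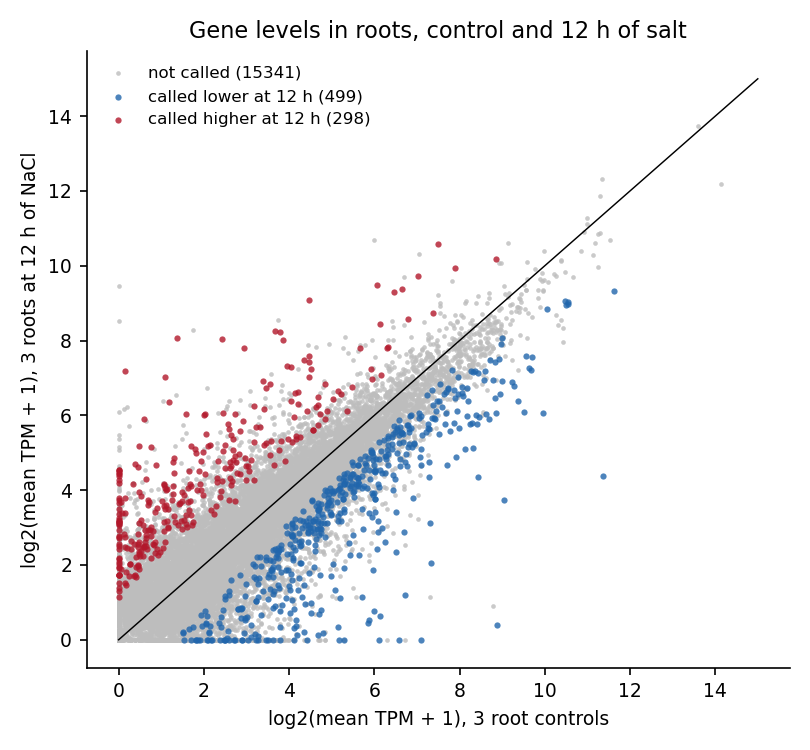
Each point is 1 of the 16138 genes tested, with log2(mean TPM + 1) of the 3 root controls on the x axis and of the 3 roots at 12 h of NaCl on the y axis; the line marks equal levels. The 298 genes called higher (red) lie mostly at low control levels, with a median of 1.75 TPM, while the 499 called lower (blue) start from a median of 35.5 TPM.

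The levels of the genes called, described on the libraries they were chosen on, were as follows. The 298 higher genes had a median of 1.75 TPM in controls and 15.9 TPM at 12 h, and 118 of them had a control mean under 1 TPM. The 499 lower genes had a median of 35.5 TPM in controls and 9.43 TPM at 12 h, and all of their control means were at 1 TPM or more. A gene near 0 in controls can hardly fall on this scale, and a gene near 0 in controls could pass the filter through its salt libraries, so the low control levels of the higher genes follow in part from the choice. Over all genes tested the medians were 6.27 TPM in controls and 5.76 TPM at 12 h. At a control mean of 100 TPM or more stood 6 higher and 115 lower genes, and at 12 h the numbers were 37 and 34.

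Calls became more frequent with the level of the gene. Among genes with a mean of 0.5 to 1 TPM over the root libraries, 0.848% were called, and the share was 3.89% at 1 to 10 TPM, 6.78% at 10 to 100 TPM and 13.0% above 100 TPM. The median standard error of the log2 fold change was 0.46, 0.52, 0.34 and 0.33 in these classes. It was thus larger below 10 TPM than above. The class at 0.5 to 1 TPM had the lowest share of calls but not the largest standard error. Higher and lower genes were about equal in number at 1 to 10 TPM, with 152 and 143. At 10 to 100 TPM there were 113 and 270, and above 100 TPM 26 and 75. Of the 100 IDs with the highest mean over the 6 libraries, 16 were called, 4 higher and 12 lower.

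Among the genes called, the rises had the larger median change on the log2 scale, where a value of 1 is a doubling. A gene with a larger standard error needs a larger change to be called. The class at 1 to 10 TPM, with a median standard error of 0.52, held 152 of the 298 higher and 143 of the 499 lower genes. The medians are thus shaped in part by the choice. The median log2 fold change was 2.16 among higher genes and -1.62 among lower genes, against -0.06 over all genes tested. A change of 2 or more was seen in 175 of the 298 higher genes and in 169 of the 499 lower ones, and a change of 4 or more in 25 and 28. The pseudocount of 1 shrinks the change of genes at low TPM. The lower genes together held 12.6%, 9.91% and 10.7% of the listed TPM in the 3 controls, and 4.11%, 3.37% and 3.54% in the 3 roots at 12 h. The higher genes held 0.59%, 0.842% and 0.63% in controls and 4.21%, 5.62% and 3.64% at 12 h. These shares describe genes chosen on the same libraries and are not a test.

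The balance of the directions depended on the scaling of the libraries. Of the genes called, 37.4% were higher with TPM as deposited, 52.8% with median-of-ratios scaling (364 higher, 326 lower) and 63.5% with every library brought to the same sum over the listed genes (386 higher, 222 lower). The last of these shifted the median log2 fold change over all genes tested from -0.06 to 0.13. Of the 298 higher genes, 289 and 290 were also called under these scalings, and of the 499 lower genes 325 and 222. No gene of the 797 changed its sign.

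The number of calls changed with the library left out. Leaving out a 12 h or control library also leaves its group with 2 libraries. That effect was not told apart from the effect of the library itself. Without 12 h replicate 1, 2 or 3 there were 389, 92 and 269 genes, of which 332, 89 and 249 were among the 797. Without control replicates 1, 2 and 3 there were 206, 303 and 548 genes, of which 188, 270 and 402 were among the 797. With 6 h replicate 2 left out of the fit, a setting added after the data were seen, the calls came to 1670, of which 668 were higher and 1002 lower, and these held each of the 797. Of the 797, 69 genes (26 higher, 43 lower) were called under all 18 alternatives in which the test was refitted. The 26 had a median log2 fold change of 3.55, from 3.71 TPM in controls to 46.2 TPM at 12 h (medians), and the 43 a median of -2.79, from 52.2 to 6.31 TPM.

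**Figure D2:**
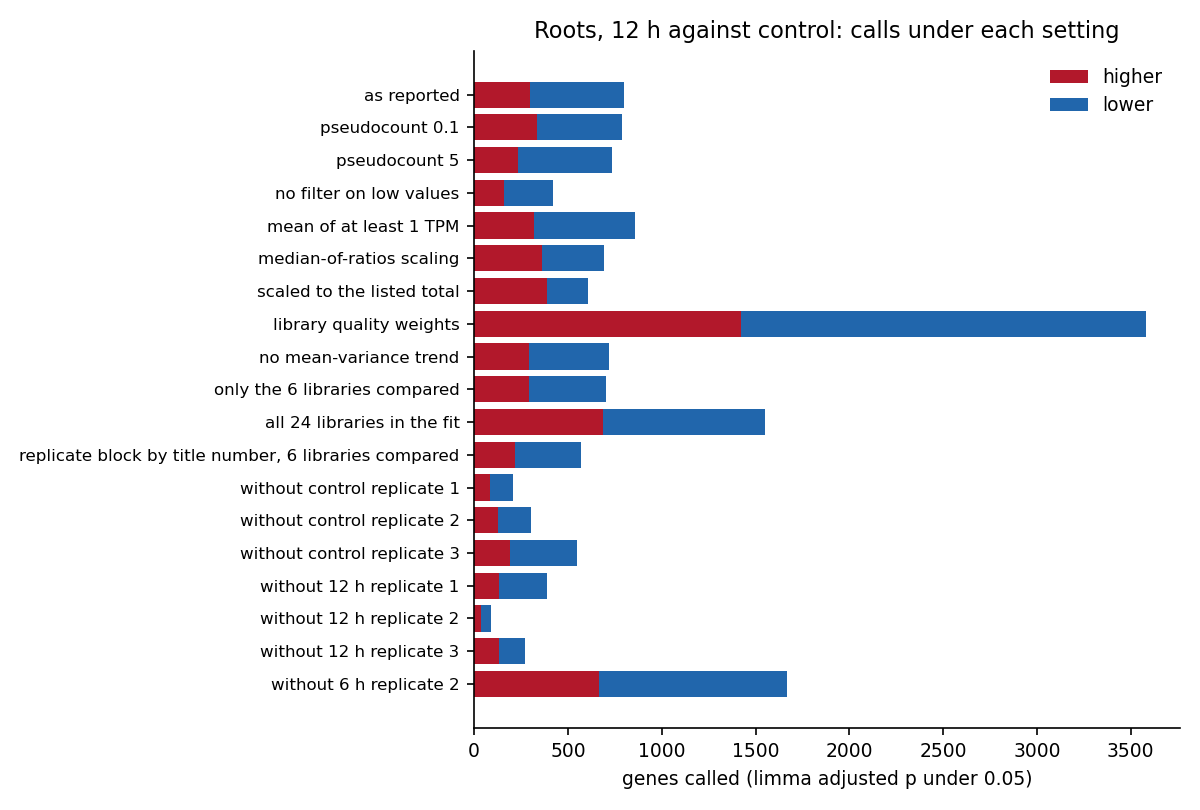
Bars give the number of genes called between 12 h and control roots under each setting, higher at 12 h in red and lower in blue. The count was 797 as reported, 92 without 12 h replicate 2, 1670 without 6 h replicate 2 and 3582 with library quality weights.

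Among the genes called higher, Glyur002126s00036414 gained the largest mean amount of TPM. It stood at 65.9, 176 and 294 TPM in the controls and at 1990.2, 1851 and 717 TPM at 12 h. Every 12 h library was above every control, and the third was well below the other two. The log2 fold change was 3.19 (SE 0.57, n = 3, limma adjusted p = 0.0163), and by mean level the ID moved from place 469 to place 14 among all IDs. It was already at 1235, 729.6 and 1033 TPM at 2 h (limma adjusted p = 0.0294) and stood at 1511, 661 and 1039 TPM at 6 h (limma adjusted p = 0.0690). With 12 h replicate 2 left out the limma adjusted p was 0.0792, and with all 24 libraries in the fit it was 0.0775, so the call was lost in both settings.

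The second of the called genes by gain of TPM was Glyur000606s00017345, at 412, 196 and 104 TPM in controls and 915, 972 and 1055 TPM at 12 h. The 12 h libraries lay close together, while the controls spread over a wide range below them. The log2 fold change was 2.26 (SE 0.52, n = 3, limma adjusted p = 0.0370). The 2 h libraries stood at 652, 753 and 1955 TPM (limma adjusted p = 0.0377) and at 6 h at 358, 591 and 308 TPM (limma adjusted p = 0.367), so the 6 h libraries overlapped the controls. This call is the least firm of the 4, since it was lost in 8 of 18 alternatives, with limma adjusted p from 0.0513 to 0.124.

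Among the genes called lower, Glyur003440s00037452 lost the largest mean amount of TPM. It was at 3828, 1836 and 2304 TPM in controls, the fifth highest mean of all IDs, and at 27.2, 19.65 and 12.4 TPM at 12 h, place 3873. The groups did not overlap, and the log2 fold change was -7.00 (SE 0.64, n = 3, limma adjusted p = 0.00172). Between these states it stood at 569.9, 153 and 990.3 TPM at 2 h and at 618, 1269 and 449 TPM at 6 h, where replicate 2 was the highest. The fall went on late, since the 12 h level was below that of 2 h (log2 fold change -4.48, limma adjusted p = 0.0326) and below that of 6 h (-5.16, limma adjusted p = 0.0144). The call against controls held in 18 of 18 alternatives, with log2 fold changes from -7.25 to -6.70.

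Glyur001793s00029326, the third highest ID in controls, fell earlier. It stood at 4211, 3318 and 1993 TPM in controls and 665, 496 and 748 TPM at 12 h, without overlap (log2 fold change -2.27, SE 0.43, n = 3, limma adjusted p = 0.0200). Its 2 h libraries were at 856, 372 and 265 TPM (-2.79, limma adjusted p = 0.0109), and at 6 h at 1575, 1890.2 and 1509.9 TPM, where it was not called (-0.88, limma adjusted p = 0.330). From 2 h to 12 h no change was called (0.52, limma adjusted p = 1). Leaving out 12 h replicate 2, control replicate 1 or control replicate 2 ended the 12 h call, with limma adjusted p of 0.0941, 0.0727 and 0.0596.

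**Figure D3:**
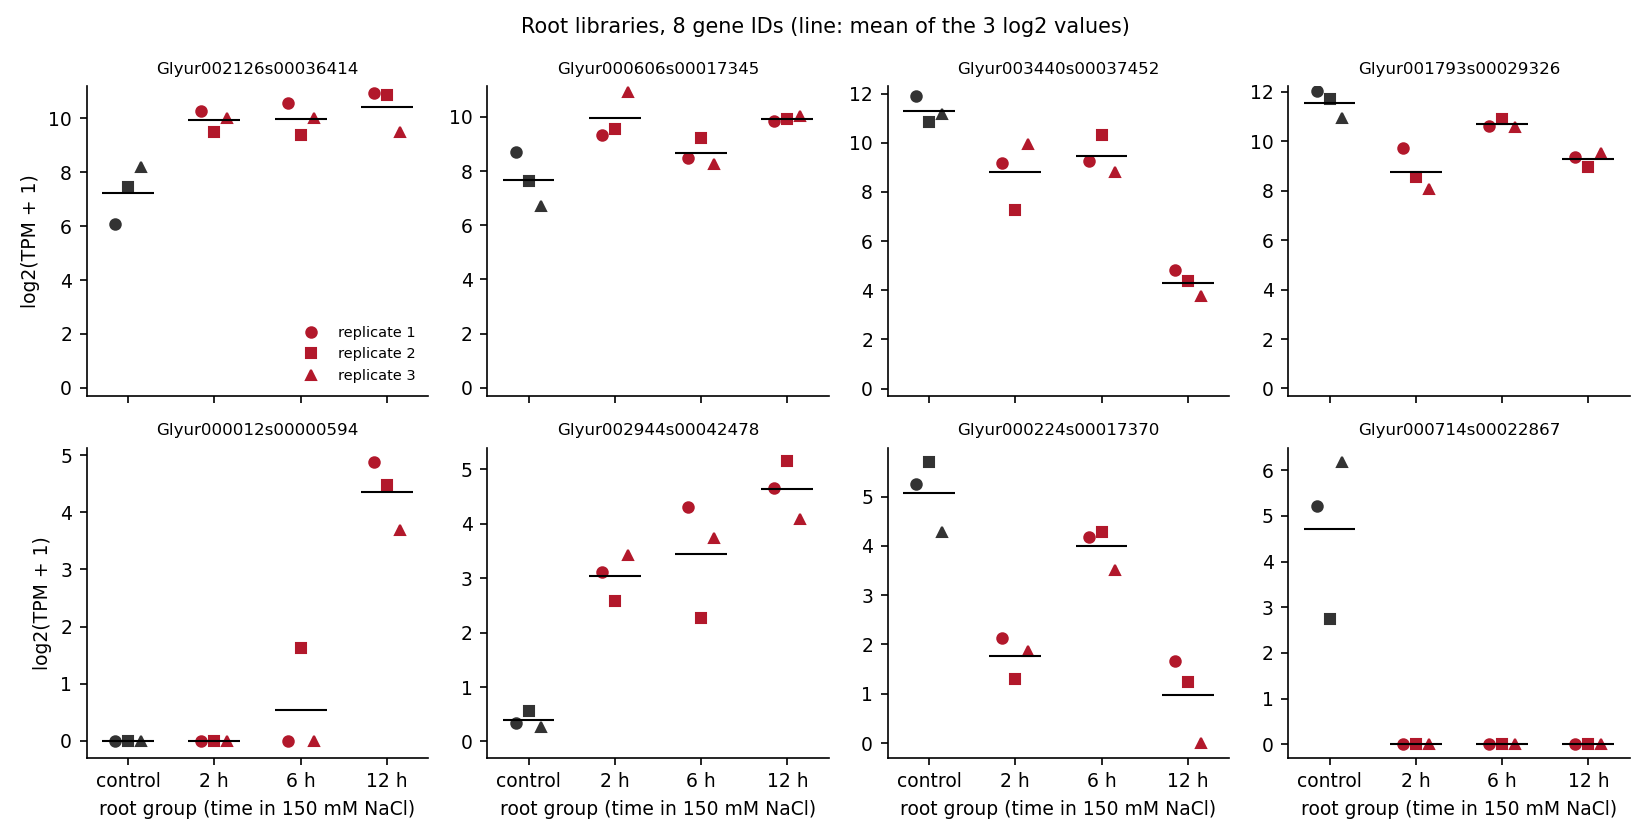
Each panel shows 1 gene ID in the 12 root libraries, with log2(TPM + 1) on the y axis, the group on the x axis, a marker shape per replicate (controls dark, salt red) and a line at the mean of the log2 values. The upper row holds the 2 IDs with the largest gain and the 2 with the largest loss of mean TPM among called genes whose groups did not overlap, such as Glyur003440s00037452 with 12.4 to 27.2 TPM at 12 h; in the lower row are 4 IDs chosen for a called difference between organs.

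Some IDs were listed at 0 in a whole group, which the files cannot tell apart from a level too low to be estimated. At 0 in all 3 controls and at 1 TPM or more in all 3 roots at 12 h were 84 IDs, with means at 12 h of 1.23 to 34.3 TPM and a median of 5.25 TPM. Of these, 39 were called, where 1.85% of all genes tested were called higher. The reverse, 0 in all 3 roots at 12 h and 1 TPM or more in every control, held for 58 IDs with control means of 1.88 to 135 TPM and a median of 5.83 TPM, and 31 were called, where 3.09% of all genes tested were called lower. Such IDs differ between the groups by choice, so these counts are a description. These lists were chosen on the 6 libraries, and the 2 h and 6 h libraries played no part in the choice. Of the 84 IDs, 65, 72 and 70 were above 0 in the 3 libraries at 2 h and 72, 39 and 77 in those at 6 h. Of the 58 IDs, 19, 14 and 19 were above 0 at 2 h and 11, 49 and 13 at 6 h. Of all listed IDs, 53.6% to 55.6% were above 0 in these 6 libraries, and 53.6% in 6 h replicate 2, whose value is the middle one at 6 h in each list. That share also counts IDs that are hardly listed in any root. It is therefore no measure of how often IDs chosen at 1 TPM or more in 3 roots would be above 0. That library listed 49 of the 58 IDs that were at 0 in all 12 h roots, with a summed 772 TPM, where the other 6 h libraries had 78.0 and 55.4 TPM and the controls 479 to 1076 TPM.

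The genes called at 12 h were followed through the earlier times, which share the same 3 controls. They were chosen for their change at 12 h against these controls. A larger median at 12 h, and the same sign at 2 h and 6 h, thus follow in part from the choice. The 298 higher genes had a median log2 fold change against controls of 1.59 at 2 h, 1.42 at 6 h and 2.16 at 12 h. Over all genes tested the medians were -0.09, -0.06 and -0.06. Without 6 h replicate 2 the 6 h median of the 298 was 1.56. For the 499 lower genes the medians were -1.26 at 2 h, -0.90 at 6 h (-0.97 without 6 h replicate 2) and -1.62 at 12 h. By library, the median of the higher genes lay 1.47, 1.67 and 1.60 above the controls at 2 h, 1.52, 0.97 and 1.56 at 6 h and 2.12, 2.40 and 1.92 at 12 h. The median of the lower genes lay at -1.12, -1.28 and -1.43 at 2 h, at -1.03, -0.68 and -0.92 at 6 h and at -1.45, -1.71 and -1.68 at 12 h. In both lists 6 h replicate 2 was the salt root nearest to the controls.

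**Figure D4:**
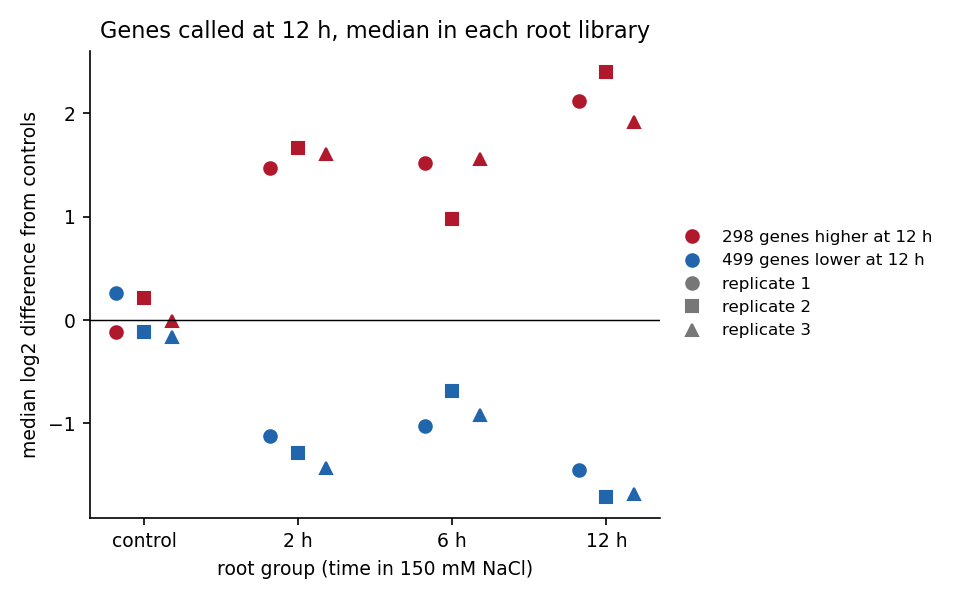
Points give, for each of the 12 root libraries, the median log2 difference from controls of the 298 genes higher at 12 h (red) and the 499 lower at 12 h (blue), with a marker shape per replicate; each control is set against the other 2 controls. At 12 h the libraries lie at 1.92 to 2.40 and at -1.71 to -1.45, and 6 h replicate 2 lies nearest to 0 of the salt roots, at 0.97 and -0.68. The genes were chosen for their change at 12 h, so the larger values there follow in part from the choice.

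Few genes were called between the salt times themselves. These comparisons leave out the controls but use the same 12 h libraries as the comparison with controls, so shared calls of the same sign follow in part from that and are given as values only. Between 2 h and 12 h, 12 genes were called (0.0744% of those tested, 0.0186% as a rise and 0.0558% as a fall). An unadjusted limma p under 0.05 was found for 914 genes (5.66%), a share little above that threshold itself. Of the 12, 9 were among the 797 (4.94% of genes tested), with 7 lower genes that fell between these times and 2 higher genes that rose. Between 6 h and 12 h, 13 genes were called (0.0806%, with 0.0062% as a rise and 0.0744% as a fall). Here 1494 genes (9.26%) had an unadjusted limma p under 0.05. Of the 13, 11 were among the 797, with 10 lower genes that fell and 1 higher gene that rose. The list of 12 came to 21, 8 and 9 without 12 h replicates 1, 2 and 3. Without 2 h replicates 1, 2 and 3 it came to 16, 24 and 11, and without 6 h replicate 2 to 23. The list of 13 came to 19, 1 and 4 without 12 h replicates 1, 2 and 3. It came to 2, 15 and 204 without 6 h replicates 1, 2 and 3. The count thus ran from 8 to 24 for the first list and from 1 to 204 for the second.

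The 2 higher genes that rose after 2 h are named here after their values were seen. Glyur000012s00000594 was listed at 0 in all controls and all 2 h roots. It was at 0, 2.10 and 0 TPM at 6 h and reached 28.5, 21.2 and 11.9 TPM at 12 h, with a limma adjusted p of 0.00331 against controls, 0.00511 against 2 h and 0.0144 against 6 h. The only value above 0 before 12 h was again that of 6 h replicate 2. Glyur000964s00027950 stood at 8.45, 5.23 and 7.92 TPM in controls, at 2.26, 1.84 and 2.43 TPM at 2 h, at 7.30, 4.07 and 8.98 TPM at 6 h and at 24.5, 19.97 and 27.1 TPM at 12 h. Its 2 h libraries lay below all controls, its 6 h libraries overlapped the controls, and its 12 h libraries lay above them. It rose from 2 h to 12 h by 2.96 on the log2 scale (SE 0.31, limma adjusted p = 0.00453), while from 6 h to 12 h no change was called (limma adjusted p = 0.0881).

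Aerial parts at 12 h served to ask which root changes were shared with the rest of the plant and which differed. All 24 libraries were fitted together for this, and aerial and root groups have no library in common. Of the 298 higher genes, 296 were tested, with a median log2 fold change of 2.16 in roots and 0.44 in aerial parts. The aerial change was called in 23 of the 296, in 20 of them as a rise, where 5.23% of all genes tested were called in aerial parts and 1.65% as a rise. Of the 499 lower genes, 495 were tested, with medians of -1.62 and -0.55, and the aerial change was called in 69, in 65 of them as a fall, where 3.58% of all genes tested were called as a fall. Over the root genes tested in this fit the aerial median was -0.04. Aerial values were above 0 on the log2 fold change scale for 76.4% of the higher genes, against 45.1% over the root genes tested, and below 0 for 81.4% of the lower genes, against 52.5%. Genes are not independent of each other, and these shares are given without a test.

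The difference between the organs, taken as the root change minus the aerial change, was called for 193 of 16718 genes (1.15%, with 0.682% above 0 and 0.473% below 0). Among the 296 higher genes it was called in 51, each with the larger value in roots, and among the 495 lower genes in 32, each with the lower value in roots. Since the genes were chosen for a large change in roots, this direction follows in part from the choice. Salt libraries of the organs with the same number in their titles deviated together, with correlations of 0.26 to 0.28 at 12 h. Controls of the organs in the same order, whose title numbers differ, did so too, at 0.25, 0.23 and 0.32. With the salt title numbers as a block (within-pair correlation 0.33) 402 genes were called for the difference between organs. The count of 193 was 125 and 76 without root 12 h replicates 1 and 2, 107, 82 and 110 without aerial 12 h replicates 1, 2 and 3, 120, 338 and 119 without aerial control replicates 1, 2 and 3, and 427 without the 6 h replicate 2 library of either organ.

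Part of the difference between organs concerned genes that were hardly listed in aerial parts. A mean under 0.5 TPM over the 6 aerial libraries was found for 44 of the 296 higher genes and 41 of the 495 lower ones. These held 17 of the 51 and 7 of the 32 called differences. Over the root genes tested in this fit, 1695 of 15514 had such a mean, with 17 differences called above 0 and 7 below. In the genes at 0.5 TPM or more in aerial parts, 34 of 252 higher and 25 of 454 lower genes were called for the difference. Their aerial medians were 0.57 and -0.59 against root medians of 2.19 and -1.56. Of all 13819 root genes at that aerial level, 72 were called above 0 and 59 below.

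**Figure D5:**
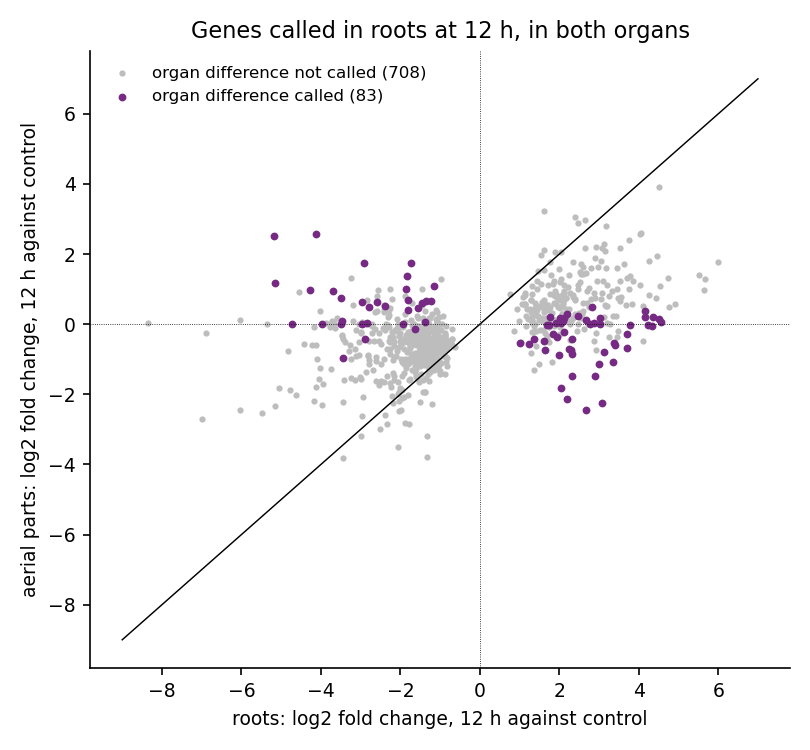
Each point is 1 of the genes called in roots at 12 h and tested in both organs, with the log2 fold change of 12 h against control in roots on the x axis and in aerial parts on the y axis; the line marks equal change. Purple marks the 83 genes whose organ difference was called, and the other genes are grey; the median aerial change was 0.44 for genes higher in roots and -0.55 for genes lower in roots.

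For the 4 IDs with the largest gain or loss among called root genes, the organ difference did not pass the test without a block, nor with the block of salt title numbers. Glyur003440s00037452 was at 11.7, 31.45 and 51.2 TPM in aerial controls and at 3.40, 3.37 and 3.11 TPM in aerial parts at 12 h (organ difference -4.30, limma adjusted p = 0.121). Glyur001793s00029326 stood at 588, 491 and 728 TPM and at 317, 398 and 374 TPM (organ difference -1.55, limma adjusted p = 0.173). Both were lower at 12 h in every aerial library, without a call. Over all 12 aerial libraries, Glyur003440s00037452 was highest at 1127.35 TPM, in replicate 3 at 2 h of salt. Glyur000606s00017345 stood at 297, 167 and 506 TPM in aerial controls and at 217, 191 and 243 TPM at 12 h (organ difference 2.70, limma adjusted p = 0.0954), with overlapping aerial groups. With the block of salt title numbers the limma adjusted p of these 3 IDs was 0.0660, 0.0979 and 0.0530 in the order given. With controls also paired in the order of their titles, which no label states, it was 0.0360, 0.0603 and 0.0306, so 2 of the 3 passed. Glyur002126s00036414, at 65.9 TPM or more in every root library, was at 4.69, 9.82 and 0 TPM in aerial controls and at 10.7, 19.0 and 90.9 TPM at 12 h (organ difference 0.37, limma adjusted p = 0.953).

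The IDs with the lowest p for the organ difference, 2 of each sign among root genes that met the conditions, behaved otherwise. Glyur000224s00017370 moved in opposite directions. In roots it fell from 37.0, 51.1 and 18.5 TPM to 2.17, 1.35 and 0 TPM (log2 fold change -4.11, SE 0.49, n = 3, limma adjusted p = 0.00407). The aerial libraries rose from 3.03, 15.04 and 0 TPM to 24.2, 25.3 and 19.95 TPM (2.58, SE 0.71, n = 3, limma adjusted p = 0.0398). The groups did not overlap in either organ, and the organ difference was -6.70 (SE 1.00, limma adjusted p = 0.0023). In roots it had been at 3.40, 1.45 and 2.64 TPM at 2 h and at 17.2, 18.4 and 10.4 TPM at 6 h, so all 6 h libraries lay between those of 2 h and those of the controls.

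The other 3 were at or near 0 in the aerial files. Glyur002944s00042478 rose in roots from 0.27, 0.47 and 0.20 TPM in controls to 24.1, 34.4 and 16.05 TPM at 12 h (log2 fold change 4.24, SE 0.49, n = 3, limma adjusted p = 0.00333). It stood at 7.62, 4.97 and 9.75 TPM at 2 h (limma adjusted p = 0.0202) and at 18.8, 3.84 and 12.4 TPM at 6 h (limma adjusted p = 0.0284), so all salt roots lay above all controls. Its highest value in the 6 aerial libraries at 0 h and 12 h was 0.07 TPM, in 1 control, and over all 12 aerial libraries 0.35 TPM, in 6 h replicate 2 (organ difference, limma adjusted p = 0.000702). Glyur000012s00000594, described above for its late rise, was listed at 0 in the aerial controls and at 0, 0 and 0.50 TPM in aerial parts at 12 h (organ difference, limma adjusted p = 0.000489). Glyur000714s00022867 stood at 36.2, 5.74 and 71.55 TPM in root controls and was listed at 0 in all salt roots at 2 h, 6 h and 12 h (limma adjusted p = 0.00722 at 12 h). It was at 0.01 TPM in 1 aerial control and at 0 in the other 11 aerial libraries (organ difference, limma adjusted p = 0.0023).

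Of 6 whole-library values compared, 3 did not overlap between the groups, and with 3 libraries against 3 none could reach a p under 0.1. The TPM of all listed genes summed to 510545, 473035 and 502085 in controls and to 424601, 397565 and 409378 at 12 h, without overlap. The means were 495222 ± 19674 (SD, n = 3) and 410515 ± 13554 (two-sided exact permutation p = 0.1, adjusted 0.2 over 6 tests, the smallest p this design allows being 0.1). IDs above 0 numbered 17030.3 ± 212 in controls and 18581 ± 554 at 12 h (n = 3, exact permutation p = 0.1, adjusted 0.2), and each 12 h library had more than each control. IDs at 1 TPM or more overlapped between the groups, at 12699.7 ± 188 and 12929 ± 231 (n = 3, exact permutation p = 0.3, adjusted 0.45). The 10 most abundant IDs of a library held 7.12%, 8.52% and 16.7% of its listed TPM in controls and 8.25%, 6.77% and 15.8% at 12 h (exact permutation p = 0.7, adjusted 0.7). Replicate 3 of each group was thus the library in which a few IDs held the most.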

How the data were processed

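The deposited files hold 1 table per library with gene IDs and the authors' TPM, per the file headers. Tools in the submitters' processing notes are fastp, HISAT2, StringTie, RSEM, DESeq2 and edgeR, while their versions, the genome build and the annotation are not given in the sources. Each file has 38135 rows for 34445 IDs, and rows of 1 ID were summed. TPM hold no read counts, so no interval for counting error could be given.

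Genes whose TPM averaged 0.5 or more over the libraries fitted were tested on the log2(TPM + 1) scale, with limma 3.58.1 (R 4.3.3) and its mean-variance trend. The 12 root libraries were fitted together for the root comparisons (16138 genes) and all 24 for comparisons between organs (16718 genes). A call is a two-sided p under 0.05 after Benjamini-Hochberg adjustment. Single values per library were compared by exact permutation (Python 3.11.15, scipy 1.17.1). The fit was tested on simulated data, with deviations from the group means shuffled gene by gene over the 12 root libraries. Deviations of a whole library were thus not simulated, so the test does not cover them.

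The comparison, the lists and the rules were chosen with earlier results of these data known. Since no ID has a name in the files, the IDs given are the 2 that rose and the 2 that fell with the largest difference of mean TPM, and 2 of each sign with the lowest p for the organ difference. All had to be called in roots, with a mean of at least 10 TPM in one group and no overlap between groups. Planned lists of named genes were not used.

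Alternatives were pseudocounts of 0.1 and 5, no filter or one at 1 TPM, 2 scalings, library quality weights, no trend, other libraries in the fit, a 2-fold minimum, a replicate block and each library left out in turn. Where a library left out leaves a group with 2 libraries, the spread is pooled over the groups of the fit.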

Additional observations from a re-analysis of the deposited data

Results flagged for a closer look

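The salt response at 12 h differed between roots and aerial parts for each of the 4 IDs chosen by the organ difference, tested in the fit of all 24 libraries as the root change minus the aerial change. Since they were chosen for the lowest p of this difference, 2 of each sign among root genes that met the conditions, the values describe them and add no support. For all but Glyur000224s00017370 the highest aerial value was 0.50, 0.35 or 0.01 TPM. Their organ difference is thus nearly the root change alone. The difference was 4.15 on the log2(TPM + 1) scale for Glyur000012s00000594, which was at 0 in all controls of both organs; this value depends on the pseudocount and ran from 2.25 to 6.74 over 23 alternatives. For Glyur002944s00042478 it was 4.27 (2.45 to 6.16 over 23 alternatives). The difference was -6.70 for Glyur000224s00017370, which fell in roots and rose in aerial parts (-9.35 to -4.23), and -4.71 for Glyur000714s00022867, which was at 0 in all salt roots (-7.91 to -2.69). The calls of the 4 held in each of the 23 alternatives. Groups of 3 libraries are too small for a search for single outlying libraries.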

How the results depend on the processing

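Depth is unknown, so counting error could not be separated from the spread between libraries. The sign of the fold change was kept for all 797 genes in the 18 refitted alternatives where they were tested. Only the 2 scalings could have changed a sign, since the groups did not overlap in any of these genes. In the other alternatives the kept sign followed from that and adds no support. The count of 797 (298 higher, 499 lower) became 420 without a filter on low values (161 higher, 259 lower), 3582 with library quality weights (1420, 2162), 1550 with all 24 libraries in the fit (685, 865) and 1670 without 6 h replicate 2 (668, 1002). Lower genes numbered 326 under median-of-ratios scaling and 222 when every library had the same listed sum. Leaving out each of the 6 libraries in turn gave 92 to 548 genes, 35 to 192 higher and 57 to 356 lower.

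Root 12 h and root control titles share the numbers 7, 8 and 9, which no label explains. Deviations from the group means correlated at 0.16, 0.04 and 0.15 for these pairs, and each library correlated best with its own number, a hint from the data and not the design. With the number as a replicate block over the 6 libraries, 571 genes were called (219 higher, 352 lower), against 702 for these 6 libraries without the block. The calls of both IDs with the largest gain of TPM were lost under this block (limma adjusted p = 0.0757 and 0.0661).

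Between 2 h and 12 h the 12 calls became 19 without a filter, 72 with quality weights and 23 without 6 h replicate 2, and 8 to 24 with 1 library left out. Between 6 h and 12 h the 13 calls became 73 with quality weights and 1 to 204 with 1 library left out. For the organ difference the 193 calls became 121 with a pseudocount of 0.1, 1393 with quality weights, 427 without both 6 h replicate 2 libraries, 402 with the block of title numbers over salt libraries and 781 when controls were also paired by the order of their titles. Leaving out 1 library gave 76 to 338. The cause of these shifts was not tested. The difference in summed TPM, 12 h minus control, ran from -95800.4 to -73676.9 over its 7 alternatives.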

Other observations

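The highest values in the root files came from 2 IDs that were not called at 12 h, named here after their values were seen. Glyur000183s00013015 stood at 3990, 7161 and 42746 TPM in controls and at 2608, 3791 and 7614 TPM at 12 h (limma adjusted p = 0.509). In control replicate 3 it alone held 8.51% of the listed TPM, against 0.781% and 1.51% in the other controls. Glyur000651s00026839 stood at 7564, 9763 and 19767 TPM in controls and at 11025, 8757 and 20981 TPM at 12 h (limma adjusted p = 0.914), and replicate 3 was the highest of each group.

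Of the genes called at 12 h, 88 had several rows under 1 ID in the files. In 40 of them at least 2 rows had a mean of 0.5 TPM or more over the 6 libraries, and in 8 of the 40 a row moved against the sum. The share called was 4.71% among tested IDs with several rows and 4.97% among the others.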
